A study of Homo sapiens with 4 samples.

Results

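The clustered protocadherin genes are the protein-coding genes on chromosome 5 whose symbols begin with PCDHA, PCDHB or PCDHG in GENCODE release 44 lifted to hg19. There were 53 of them among 20162 protein-coding genes, with 15 in the PCDHA cluster, 16 in the PCDHB cluster and 22 in the PCDHG cluster. All 53 are transcribed from the plus strand, within a span of 726824 bp from position 140165721 to 140892544. The promoter of a gene, taken as the window of 1000 bp before and 1000 bp after the start of its canonical transcript, was searched for new DNA methylation peaks in the wild type library.

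Cells of the human embryonic kidney line HEK293 were transfected with an epigenome editor in which a catalytically dead Cas9 carries a SunTag array of short peptides (dCS). A second protein, Ab-3A3L, joins an antibody fragment against that peptide to the catalytic domain of the DNA methyltransferase DNMT3A and to its partner DNMT3L. An sgRNA for the ISG15 promoter directed dCS to its target, and cells carrying the reporters of all constructs were sorted 3 days after transient transfection. The 4 conditions, with 1 library each, were untreated cells, wild type Ab-3A3L (WT), and Ab-3A3L with the K844E or the R887E exchange in DNMT3A. Methylated DNA was enriched with the methyl-CpG binding protein MBD2 and sequenced (MBD-seq), and the question addressed here was where the wild type construct added methylation away from ISG15. The values below come from the list of 12864 new peaks of the WT cells against untreated cells, and the K844E and R887E libraries were not analysed here.

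Clustered protocadherins are cell adhesion proteins of neurons, and are best known for giving each neuron its own surface identity. In the PCDHA and PCDHG clusters every gene contributes a large exon of its own, the variable exon, which codes for the extracellular cadherin repeats and the membrane-spanning part and is spliced to constant exons shared by the cluster. PCDHB genes consist of such a large exon without constant exons. Each variable exon has its own promoter, which neurons choose in a largely random way, and methylation of these promoters goes with silence. CTCF and cohesin loop the chosen promoter to a distant enhancer. The C-type genes at the ends of the PCDHA and PCDHG clusters, here PCDHAC1, PCDHAC2, PCDHGC3, PCDHGC4 and PCDHGC5, are expressed more evenly, and the remaining 48 members are called variable.

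Of the 53 promoters, 1 overlapped a new peak, that of the C-type gene PCDHAC1. This was 1.89% of the members, with a 95% exact binomial interval of 0.0478% to 10.1%. Of all coding promoters 8386 had a new peak, or 41.6%. Of the 14467 coding promoters with a CpG island 57.4% had one, against 1 of the 32 members with a promoter island (3.12%, interval 0.0791% to 16.2%). The promoters of these 32 members had a median of 60 CpGs, against 116 in the coding promoters with an island. The other 2 peaks of the span lay outside the promoters, in the first exon of PCDHGB4 and in the intron that follows the first exon of PCDHGC5. Intervals and limits given here cover counting error only, and neighbouring members with similar sequences are not independent of each other.

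The sequences under the 3 peaks are given first, since these are the only places in the span where a gain was listed. They were read from the plus strand of hg19, which is the strand of the genes, and capitals mark CpGs. For PCDHAC1 the part before the start site is shown, and for the others the whole peak.
PCDHAC1, chr5:140305760-140305883: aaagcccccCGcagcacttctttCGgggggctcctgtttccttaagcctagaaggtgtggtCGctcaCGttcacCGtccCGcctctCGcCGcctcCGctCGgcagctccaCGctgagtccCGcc
PCDHGB4, chr5:140768973-140769249: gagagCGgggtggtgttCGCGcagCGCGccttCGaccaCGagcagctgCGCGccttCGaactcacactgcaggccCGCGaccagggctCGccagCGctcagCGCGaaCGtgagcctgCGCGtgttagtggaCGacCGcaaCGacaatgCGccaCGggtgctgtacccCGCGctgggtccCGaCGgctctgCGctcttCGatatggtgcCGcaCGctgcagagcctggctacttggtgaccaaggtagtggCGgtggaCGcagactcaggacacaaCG
PCDHGC5, chr5:140872118-140872404: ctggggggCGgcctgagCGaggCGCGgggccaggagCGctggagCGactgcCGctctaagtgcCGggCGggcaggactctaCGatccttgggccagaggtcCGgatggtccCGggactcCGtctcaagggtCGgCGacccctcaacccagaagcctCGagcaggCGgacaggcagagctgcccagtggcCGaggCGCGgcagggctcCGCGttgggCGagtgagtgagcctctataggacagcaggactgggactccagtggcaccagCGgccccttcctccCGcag
The PCDHAC1 stretch holds 12 CpGs in 124 bp, the PCDHGB4 peak 35 in 277 bp and the PCDHGC5 peak 25 in 287 bp.

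The peak at PCDHAC1 extends over 662 bp, from 140305760 to 140306421, with its summit at 140305928, which is 44 bp from the start site at 140305884. It lies in the 5′ untranslated part of the first exon and just upstream of it, and holds 65 CpGs of an island with 134 CpGs that runs from 140305713 to 140307193. The authors' fold was 7.47 and the −log10 q was 9.65. From the fold and the p-value together, 15 fragments were recovered at the summit against a background rate of 1.14 fragments. Background rates in the list follow from the reads of a control library, taken here to be that of the untreated cells, with each control read worth 0.694. At PCDHAC1 the rate corresponds to 65 control reads in 10000 bp around the summit, where the genome-wide rate would give 34.8, and it allows at most 1 control read over the fragment length of 253 bp. This was an ordinary peak for the list, with its medians of 7.45 for the fold and of 18 fragments.

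The PCDHGB4 peak, 140768973 to 140769249, lies entirely in the coding part of the first exon, with its summit 1754 bp downstream of the start site. It overlaps an island of 64 CpGs from 140768940 to 140769483. Its fold was 2.40 and its −log10 q was 3.28, from 33 fragments against a rate of 13.2. The PCDHGC5 peak, 140872118 to 140872404, has its summit 3538 bp downstream of the start, between the end of the first exon at 140871267 and the first constant exon at 140874374. It overlaps the end of an island of 122 CpGs that runs from 140871065 to 140872335. Its fold was 2.46 and its −log10 q was 4.25, from 39 fragments against a rate of 15.3. PCDHGB4 was chosen for description after its values were seen.

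In both PCDHG peaks the background was set by the control reads at the summit itself, 19 at PCDHGB4 and 22 at PCDHGC5, where the genome-wide rate corresponds to 0.88 per fragment length. Without scaling, the WT library thus held 1.74 and 1.77 fragments per control read at these summits. Their background rates exceeded those of 96.9% and 97.5% of the peaks on chromosomes 1 to 22, X and Y, and their folds exceeded 2.34% and 2.65% of them. At PCDHAC1, the rate exceeded 54.3% and the fold 51.4%. The 190 listed peaks with rates of 12 to 16 had at least 29 fragments each, while at the genome-wide rate 6 fragments were enough for the list.

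**Figure D1:**
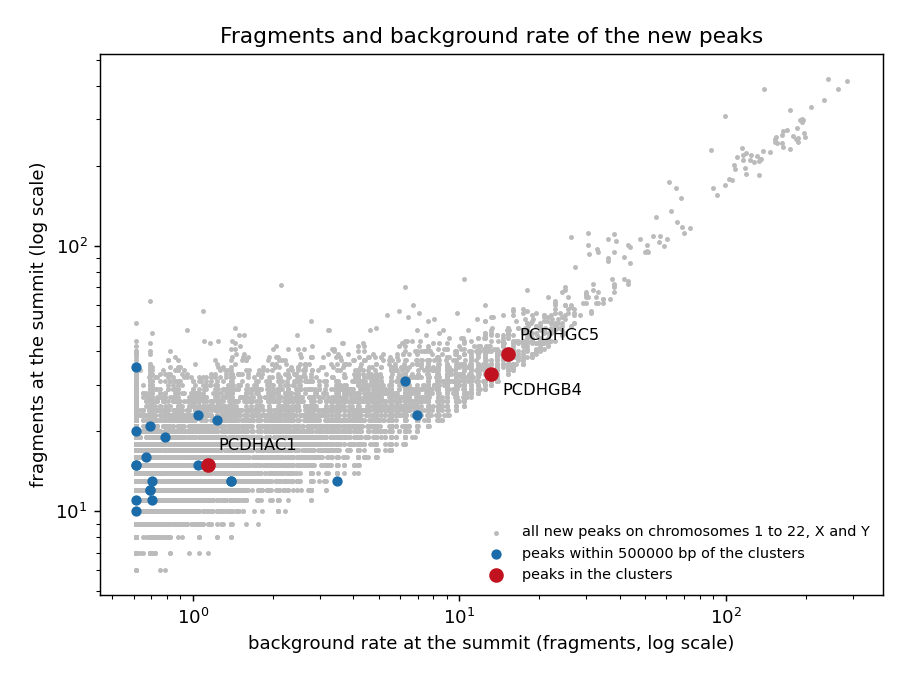
Fragments at the summit against the background rate in fragments, both on log scales, for the 12795 new peaks of the main chromosomes (grey points), the peaks within 500000 bp of the clusters (blue) and the 3 peaks in the clusters (red). PCDHAC1, with 15 fragments at a rate of 1.14, lies within the bulk of the peaks, and PCDHGB4 and PCDHGC5 lie in the sparse part at rates of 13.2 and 15.3.

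In the PCDHA cluster, 1 of 15 promoters had a peak, or 6.67% (interval 0.169% to 31.9%). The promoters of PCDHA1 to PCDHA13, the 13 variable genes, had none, and neither had that of PCDHAC2. All 15 promoters contain a CpG island, and they held 49 to 126 CpGs with a median of 59. PCDHAC2 is the closest counterpart of PCDHAC1 in base composition, with 108 CpGs and a GC content of 57.2% in the promoter against 126 and 56.6%. Its island is smaller, with 80 CpGs against 134, and the nearest new peak was 39640 bp away. With 1 library, the difference between PCDHAC1 and PCDHAC2 was not tested.

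No peak was listed anywhere in the 197975 bp of the PCDHB cluster. None of its 16 promoters had one, which allows a share of up to 18.8%, or 20.6% by the exact interval. These are PCDHB1 to PCDHB16, and the nearest peaks were 124538 to 223217 bp away. Their promoters are the poorest in CpGs of the 3 clusters, with a median of 39.5 and a range from 22 at PCDHB9 to 64 at PCDHB1, and none contains a CpG island.

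In the PCDHG cluster none of the 22 promoters had a peak, which allows a share of up to 13.6%, or 15.4% by the exact interval. They comprise PCDHGA1 to PCDHGA12 and PCDHGB1 to PCDHGB7, the 19 variable genes, and PCDHGC3, PCDHGC4 and PCDHGC5. The promoters held 28 to 95 CpGs with a median of 58.5, and 17 of the 22 contain an island. PCDHGC3 and PCDHGC4 had the most CpGs, 95 and 83, and PCDHGC5 had 30. The island of PCDHGC5 begins 2417 bp after the start site and runs past the end of the first exon. Over all 3 clusters, 1 of 5 C-type promoters had a peak (20%, interval 0.505% to 71.6%). Of the variable promoters, PCDHB genes included, 0 of 48 had one, which allows up to 6.25%, or 7.4% by the exact interval. These ranges overlap.

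**Figure D2:**
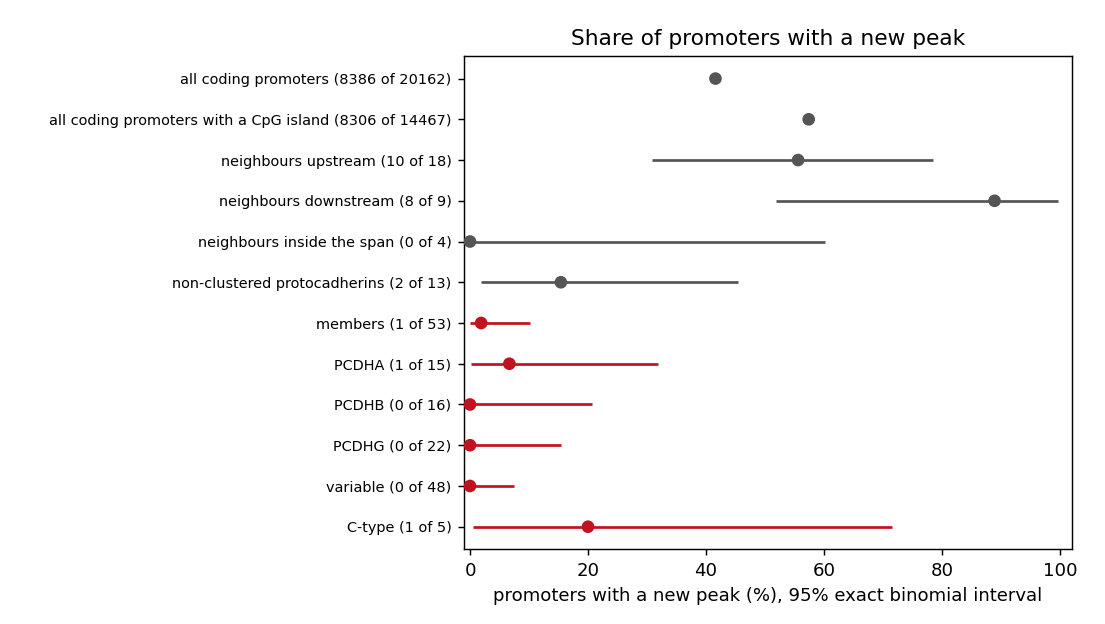
Percentage of promoters with a new peak (points) and its 95% exact binomial interval (lines) in all coding promoters, in neighbouring and non-clustered genes (grey) and in the clustered protocadherins (red), with the counts beside each name. The interval of the 53 members ends at 10.1%, below the 41.6% of all coding promoters.

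Promoters of the clusters are poor in CpGs, with a median of 56 within 1000 bp of the start site against 96 in all coding promoters, and a median GC content of 42.8% against 55.9%. The share of all promoters with a new peak rose with the number of CpGs, from 1.08% at 21 to 40 CpGs to 5.7% at 41 to 60, 22.1% at 61 to 80, 41.2% at 81 to 100 and 66.3% at 101 to 150. In the same classes the clustered genes had peaks at 0 of 11, 0 of 25, 0 of 13, 0 of 2 and 1 of 2 promoters. The first 2 classes hold 36 of the 53 members, and there the absence of a peak was near the background. For the 13 members with 61 to 80 CpGs, the limit of 23.1% does not lie below the background of 22.1%.

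Weighted by the CpG classes of the 53 members, the share in all promoters corresponds to 6.56 promoters, or 12.4%, where 1 was observed. The gap to all promoters was therefore much narrower at like CpG number, 12.4% against an interval that ends at 10.1%, than the 41.6% shows. Similar neighbouring members are not independent, which makes that interval too narrow, so no remaining difference is drawn from it. By cluster, the weighted number was 2.89 for PCDHA with 1 observed, 0.66 for PCDHB and 3.02 for PCDHG with 0 observed in each. The interval of PCDHA, which ends at 31.9%, covered its weighted share of 19.2%, and the limit of 18.8% for PCDHB lay above 4.12%. For PCDHG the limit of 13.6% and the upper end of the exact interval, 15.4%, lay on either side of the weighted 13.7%, so that no difference was detectable in any single cluster.

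The larger CpG islands of the clusters mostly lie not at the start sites but inside the first exons. Islands in these exons beyond the promoters had a median of 87.5 CpGs, against 29.5 in islands at member promoters. The 13 variable PCDHA exons share 1 layout. Each has a small island of 20 to 40 CpGs that begins 100 to 266 bp after the start site, and a large one of 110 to 138 CpGs that begins 1191 to 1381 bp after it and is 959 to 1215 bp wide. None of these 26 islands overlapped a new peak. Of all islands at coding promoters with 20 to 39 CpGs 13.4% had one. Of all islands in coding sequence outside promoters with 101 to 150 CpGs 26.2% had one. The groups are small and their exons similar, so no difference is drawn from these counts. PCDHB genes lack the small island, but 14 of the 16 have an island of 82 to 103 CpGs in the first exon that begins 1401 to 1561 bp after the start. PCDHB9 has its island of 84 CpGs in the second exon of its canonical transcript, and PCDHB1 has none. No PCDHB island overlapped a peak, beside 21.3% of all islands in coding sequence outside promoters with 80 to 100 CpGs. The variable PCDHG exons were less uniform, with 17 exon islands of 18 to 94 CpGs, of which that of PCDHGB4 had a peak. Of all islands in coding sequence outside promoters, 9.44% had a peak. PCDHGA12 stood out with an island of 155 CpGs and 2123 bp, the largest of the span, which begins 421 bp after its start and had no peak. Of all islands at coding promoters with over 150 CpGs 77.5% had a peak, and 1 island allows no comparison.

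**Figure D3:**
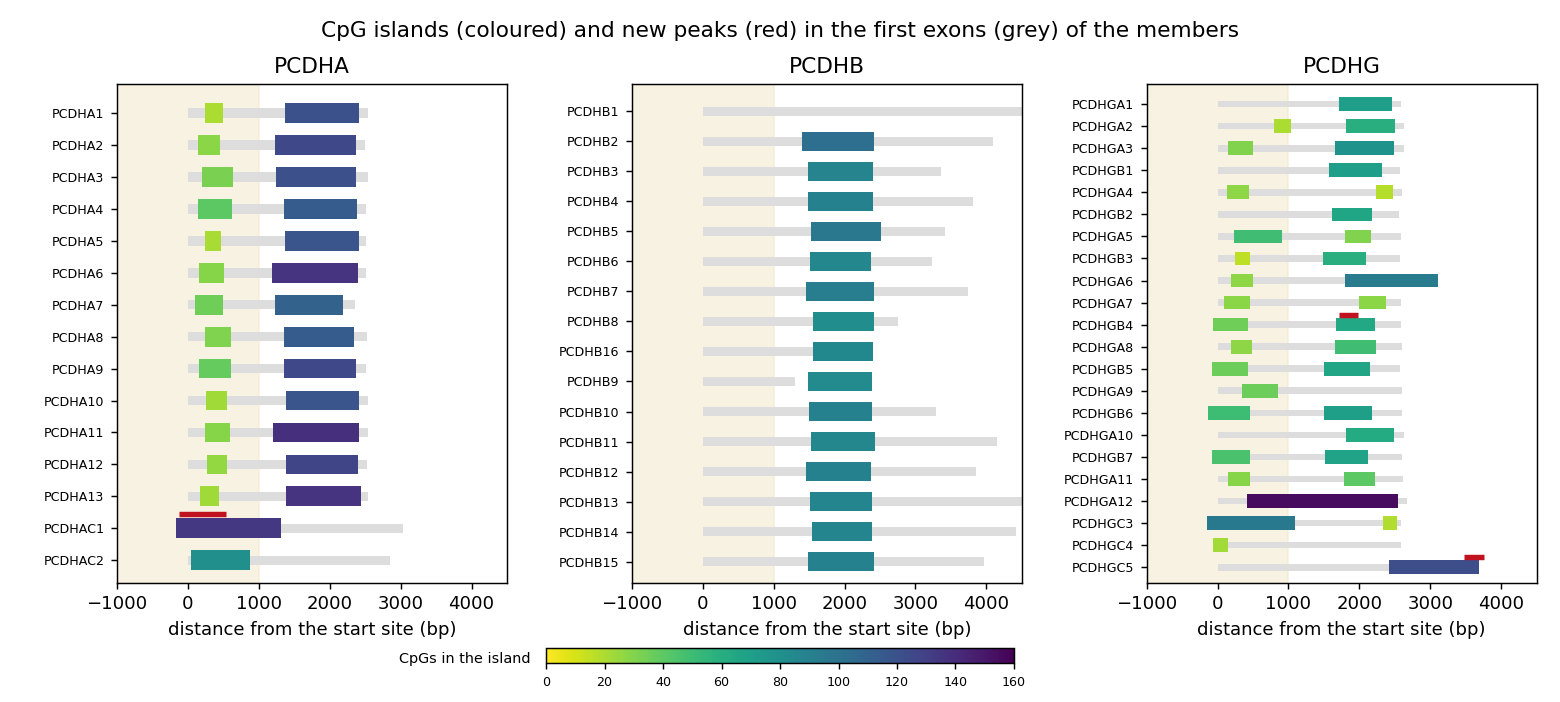
CpG islands (bars coloured by their number of CpGs), first exons (grey bars, cut at the right edge) and new peaks (red lines) of the 53 members by distance from the start site in bp, with the promoter window shaded. The large exon islands begin beyond 1000 bp in the variable PCDHA genes and in PCDHB genes, while those of PCDHAC1 and PCDHAC2 begin within the promoter window. The 3 peaks lie at PCDHAC1, PCDHGB4 and PCDHGC5.

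In the span 95 islands were found, or 131 per Mb against 18.0 per Mb over the genome, but the density of new peaks was 4.13 per Mb against 4.48. New peaks overlapped 3 of the 95 islands (3.16%, interval 0.656% to 8.95%), where 19.4% of all 51437 islands had one. Of the 32 islands at member promoters 1 had a peak, beside 55.2% of all islands at coding promoters. The 32 islands are small, with a median of 29.5 CpGs. Among all islands at coding promoters, the share was 13.4% at 20 to 39 CpGs and 4.23% at 19 or fewer. Beyond the promoters 47 islands overlapped coding exons of members, and 2 of them had a peak (4.26%, interval 0.52% to 14.5%), beside 9.44% of all islands in coding sequence outside promoters, which lies within that interval. Of these 2 peaks, that of PCDHGC5 overlaps its island only past the end of the exon. None was found in the 6 islands of protocadherin pseudogenes, among them PCDHA14 and PCDHB17P, a number too small to show a difference.

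Exon islands were set beside the islands of all genes that overlap coding sequence outside promoters, by number of CpGs. With 60 to 79 CpGs, 15.5% of all such islands had a peak and 1 of 9 in the clusters. With 80 to 100 CpGs the background was 21.3%, and 0 of 15 had one in the clusters. The limit of 20% and the upper end of the exact interval, 21.8%, lay on either side of that background. With 101 to 150 CpGs the background was 26.2% and the clusters had 1 of 15. The interval of 0.169% to 31.9% covers that background. Over the range of 80 to 150 CpGs, 1 of 30 exon islands had a peak, or 3.33% beside a background of 23.9%. Its interval, 0.0844% to 17.2%, ends below that, but islands of similar neighbouring exons are not independent, which makes it too narrow. No difference from the background is therefore drawn from it. The 1 island with a peak was that of PCDHGC5, which begins in the first exon, but its peak lies in the intron that follows. A region enters the list through a gain over the control, so an island already methylated in untreated cells and one that gained no methylation cannot be told apart where no peak was listed.

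**Figure D4:**
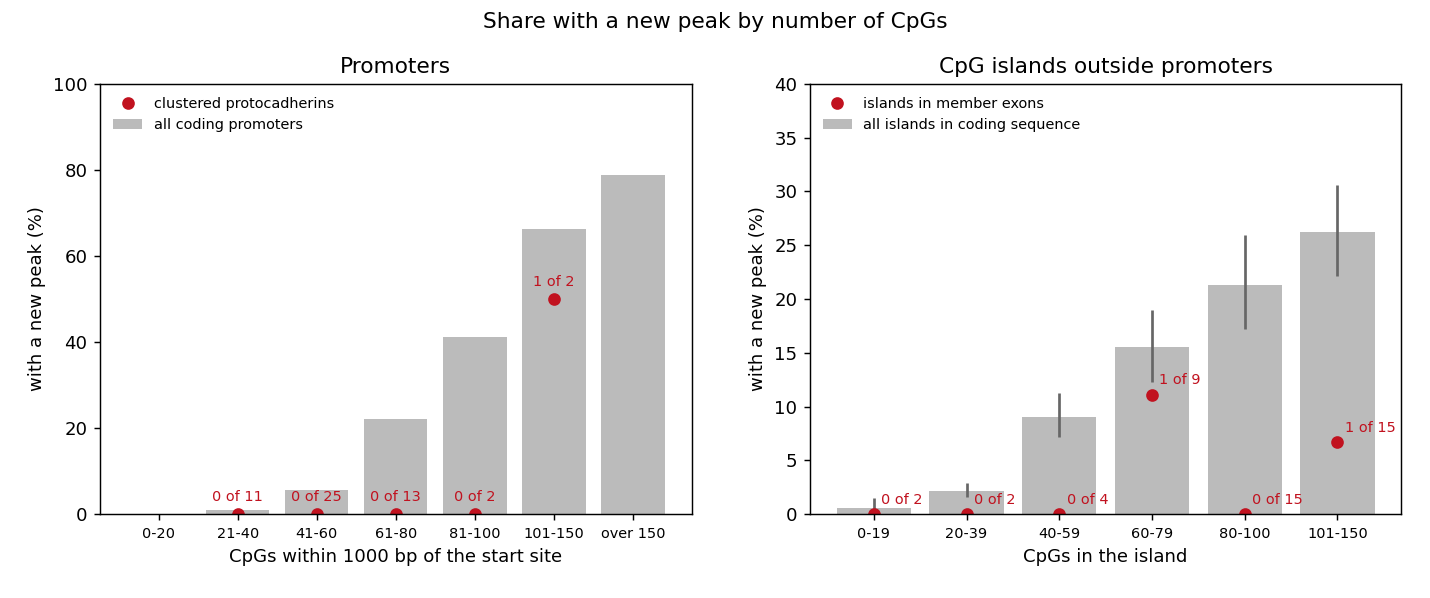
Percentage with a new peak by number of CpGs, for promoters (left) and for CpG islands in coding sequence outside promoters (right), in all genes (grey bars, with 95% exact binomial intervals on the right) and in the clustered protocadherins (red points with counts). The red points lie below the grey bars in every class that holds members, with 1 of 2 at 101 to 150 CpGs in promoters and 1 of 15 in exon islands. The latter is that of PCDHGC5, whose peak lies in the intron part of the island.

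Peaks were absent over stretches that hold many islands but are not among the longest without a peak. The interval between the PCDHAC1 and PCDHGB4 peaks, 140306422 to 140768972, is 462551 bp long and holds the start sites of 28 members and 45 islands, 19 of them with at least 80 CpGs. By the number of such islands it ranked 5 among the 12819 stretches between neighbouring new peaks or chromosome ends, and 3 among the 12689 of the autosomes. By the number of all islands it ranked 52, and by length 1406. The stretch upstream of PCDHAC1, 140044699 to 140305759, holds 13 member starts and 15 islands with at least 80 CpGs in 261061 bp. By these islands it ranked 8, or 6 on the autosomes, by all islands 108, and by length 2497. The ranks by islands go with the density of islands in the span, 131 per Mb against 18.0 over the genome. These stretches include assembly gaps elsewhere in the genome, and were chosen after their values were seen.

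The sequences of close members resemble each other, and reads that fit several places equally well cannot be placed with certainty. Stretches of 150 bp, the read length, that occur exactly elsewhere in the genome made up at most 23.7% of a promoter, at PCDHA7. In PCDHB8 and PCDHB13 the share was 21.4%, in PCDHGB4 and PCDHGB5 18.5%, and in 41 members it was 0. Of the 53 promoters, 12 thus held any repeated stretch. With the first exons included, where most islands lie, 29 of the 53 members held one, among them 13 of the 16 PCDHB genes, at up to 13.8% of the sequence. The part of such stretches in the result was not tested.

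Genes around the clusters did have peaks. Within 500000 bp of the span lie the start sites of 31 other coding genes, of which 18 had a peak (58.1%, interval 39.1% to 75.5%). The share of all promoters weighted by their CpG classes was 41.5%, which lies within that interval. Outside the span 18 of 27 had one (66.7%, interval 46.0% to 83.5%), beside a weighted share of 42.8%. Some of these genes start close together and share the same peak, such as HDAC3 with RELL2 and NDUFA2 with IK. They were counted as separate genes, which makes the intervals too narrow, so no difference from the weighted share is drawn from them. The 4 inside the span, SLC25A2, TAF7, AC005609.1 and ENSG00000279983, had none, which allows up to 75% and so shows no difference from the weighted 32.7%. SLC25A2, a mitochondrial carrier, and TAF7, a subunit of the general transcription factor TFIID, have promoters of 101 and 78 CpGs. Upstream of the span 10 of 18 promoters had a peak and downstream 8 of 9, among them those of HDAC3, a histone deacetylase, with a fold of 7.79 and DIAPH1, an actin nucleator, with 9.93. The only downstream promoter without a peak was that of the non-clustered protocadherin PCDH12, which has 34 CpGs. The density of new peaks was 18 per Mb in the 500000 bp upstream and 26 per Mb downstream, against 4.13 in the span, while islands numbered 36.0, 38.0 and 131 per Mb. The promoters of the outer genes had a median of 96 CpGs, as in all coding promoters, against 56 in the members.

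**Figure D5:**
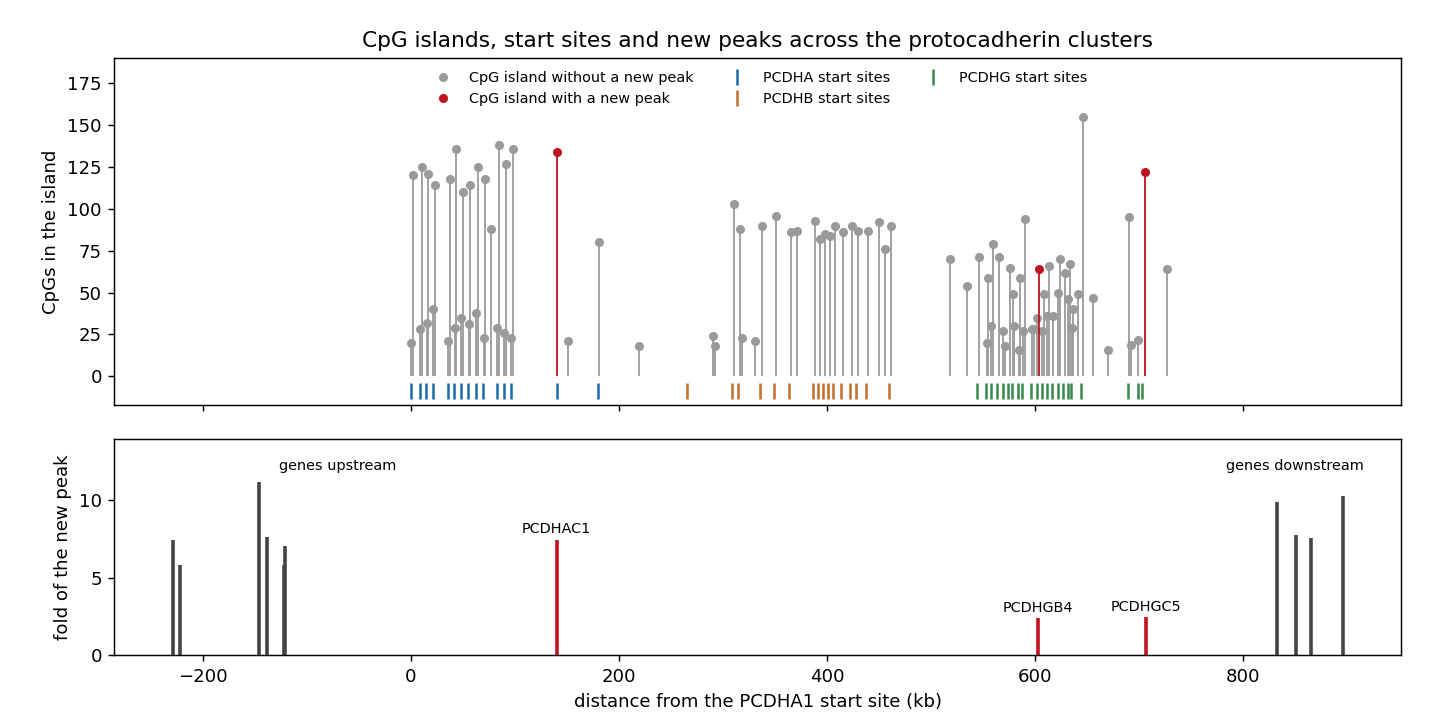
CpG islands by their number of CpGs with the start sites of the members (top) and folds of the new peaks (bottom), by distance from the PCDHA1 start site in kb. Islands with a new peak are red, and the 3 red peaks at PCDHAC1, PCDHGB4 and PCDHGC5 are the only ones between the groups of peaks at the genes upstream and downstream.

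The protocadherins outside the clusters, which code for adhesion proteins from genes of their own, had peaks at 2 of 13 promoters (15.4%, interval 1.92% to 45.4%). These were PCDH1, 365431 bp downstream of the clusters, with a fold of 13 and 158 CpGs, and PCDH9 with a fold of 14.3 and 116 CpGs. PCDH7, PCDH8, PCDH10, PCDH11X, PCDH11Y, PCDH12, PCDH15, PCDH17, PCDH18, PCDH19 and PCDH20 had none. Of these, PCDH19, PCDH7 and PCDH8 have 150, 142 and 131 CpGs. Of all promoters with 101 to 150 CpGs, 66.3% had a peak. The share of all promoters weighted by the CpG classes of the 13 genes was 39.7%, which lies within the interval, and the interval also overlaps that of the clustered genes.

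The members share short words before their start sites that the choice of members did not use. The word of 8 letters held by the highest number of promoters of a cluster was sought in the 300 bp upstream, on the strand of the gene. In PCDHA and in PCDHB 2 overlapping words shared the highest number, and the one with the letters CGCT was taken. The word was ATGTCGCT in 10 of 15 PCDHA promoters, GTGGCGCT in 13 of 16 PCDHB promoters and GCCGCTGT in 11 of 22 PCDHG promoters. In all coding promoters these words were found on that strand in 0.169%, 0.838% and 0.853%, and on either strand in 0.273%, 1.52% and 1.59%. Each word was absent from the other 2 clusters on either strand. The words were picked from the members themselves, so these shares are a description. The letters CGCT, which this choice favoured, occur in 14 of 15, 15 of 16 and 20 of 22 promoters, but also in 62.3% of all promoters. The following windows of 30 bases show the words in capitals in the foremost 2 genes of each cluster that hold them, and were chosen after the words were known.
PCDHA1, chr5:140165672-140165701: ttggccacatgATGTCGCTgtacaccacaa
PCDHA2, chr5:140174367-140174396: ttagccacatgATGTCGCTgtccaccatag
PCDHB2, chr5:140474130-140474159: agagacgcgggGTGGCGCTgcagccttaga
PCDHB3, chr5:140479978-140480007: gcgaacgcatgGTGGCGCTgttgactaaga
PCDHGA1, chr5:140709973-140710002: ggactgtgggcGCCGCTGTtcactaatctg
PCDHGB1, chr5:140729595-140729624: aacctctgggcGCCGCTGTcgaccaaaagg
All are on the plus strand of hg19. The word lies a median of 55.5 bp before the start in PCDHA, 66.0 bp in PCDHB and 67 bp in PCDHG genes, and each of the 3 words contains a CpG. PCDHAC1, the member with a promoter peak, does not hold the word of its cluster, and neither do PCDHAC2, PCDHA9, PCDHA11 and PCDHA13. None of the 34 members that hold the word of their cluster had a promoter peak, nor had 18 of the 19 that do not.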

How the data were processed

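MBD-seq was analysed for 1 wild type library of 4 conditions. Per the methods and the submitters' processing notes, the authors mapped reads to hg19 with Bowtie2, and the notes name MACS2, whose version and settings are not given in the sources used here. For each peak the authors deposited a score (10 times the −log10 q, rounded down, not used), a fold over background, the −log10 p-value, the −log10 q-value and the summit. The smallest deposited −log10 q was 2.00. Fragments k and rate were recovered from fold = (k + 1)/(rate + 1) and the Poisson p-value, which missed the listed −log10 p by at most 0.000403. That the control was the untreated library is an inference. The totals of the library were not analysed here, so the depth is given as fragments per peak.

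Start sites came from GENCODE release 44 lifted to hg19. PCDHA6 and PCDHA7 lack a canonical transcript there, as do 281 genes in all, and the 5′ end of the gene was used. CpG islands were built from unmasked hg19 by scoring 17 per CpG and -1 per other base, keeping segments of 200 bp or more with 50% GC or more whose CpGs were at least 0.6 of the number expected. Overlap was at least 1 bp. Shares have 95% exact binomial intervals, and for a share of 0 the limit is 3 counts of the total. Without replicates no test between conditions and no p-value was computed. Members and lists were chosen with earlier results of these data known. Every member is named, with full values for promoters with a peak and C-type genes, and sequences for at most 6 promoters beside the peaks. The values of 1 gene of the list of partners are not reported here. Alternatives covered the peak threshold, promoter width, overlap, start sites and span. The steps were tested on simulated data. Scripts ran under Python 3.11.15 with scipy 1.17.1, pandas 2.3.3, matplotlib 3.10.9, numba 0.67.0 and numpy 2.4.6, and samtools 1.23.1 indexed the genome.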

Additional observations from a re-analysis of the deposited data

How the results depend on the processing

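Of 68 alternatives computed, 52 left the value within 1.5 times the one reported. The 52 include counts that stayed at 0, as in all PCDHB settings, and several counts that rest on the same PCDHAC1 peak. They are therefore not separate checks. With peaks of a −log10 q of at least 10, the counts of promoters with a peak fell to 0 in the members, in PCDHA and in the C-type genes, the peaks in the span to 0, and those in the PCDHA and PCDHG spans to 0, as the peaks have values of 9.65 (PCDHAC1), 3.28 (PCDHGB4) and 4.25 (PCDHGC5). The median fold of peaks at member promoters could then not be given. Of all new peaks, 6505 reach that threshold, and the share of all promoters was not computed there, so the fall to 0 has no background beside it. With promoters of 2000 bp on either side, PCDHGB4 was added, giving 2 members, 1 PCDHG and 1 variable promoter with a peak. The non-clustered protocadherins rose to 4 with PCDH7 and PCDH10, and all promoters with a peak from 8386 to 8608. With the start sites of all coding transcripts, PCDHGA8 was added, giving 2 members, 1 PCDHG and 1 variable promoter, and the number in all promoters was not computed. PCDHGA8 brings no further peak, since the span holds only 3. With peaks of at least the median fold, 5157 of all promoters had a peak, and 1 peak was left in the span and 0 in the PCDHG span. No paired analysis was possible because each condition has 1 library, and no replicate could be left out. Depth limits what could be listed, with at least 29 fragments needed at background rates of 12 to 16.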

Other observations

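Genes that act on the clustered protocadherins or with their proteins, named with results of these data known, mostly had a new peak at the promoter, 19 of 26 or 73.1% (95% exact binomial interval 52.2% to 88.4%). Their promoters are rich in CpGs, with a median of 143.5 within 1000 bp of the start site, and 12 of them have over 150. The share of all coding promoters with a peak was 41.6%, and weighted by the CpG classes of the 26 genes it was 65.5%, which lies within the interval. Of 8 chromatin organisers, 5 had one (62.5%, interval 24.5% to 91.5%). These were CTCF with a fold of 14.9, NIPBL, which loads cohesin, with 15.3, SMC3 with 6.21, STAG1 with 10.2 and WAPL, which releases cohesin, with 10.6. RAD21, SMC1A and STAG2 had none.

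Of 6 silencing factors, SMCHD1 (9.40), DNMT3A (5.73) and DNMT3B (9.95) had a peak, with the fold in parentheses, and SETDB1, DNMT1 and DNMT3L had none. The share of 50% had an interval of 11.8% to 88.2%. Of 12 processing and signalling partners, 11 had a peak (91.7%, interval 61.5% to 99.8%). Their promoters had a median of 149 CpGs. Of all coding promoters, 66.3% with 101 to 150 CpGs and 78.7% with over 150 had a peak, and both shares lie within that interval. Among the 11 partners are ADAM10, a protease that sheds the extracellular part, with a fold of 10, and PTK2, a focal adhesion kinase, with 12.4. The partners of the WAVE complex, which drives actin branching, are WASF1 (13), NCKAP1 (10.6), CYFIP1 (10.9), CYFIP2 (6.21), ABI1 (11.2) and ABI2 (6.19). FYN, a Src family kinase, had a fold of 10.6 and RET, a receptor tyrosine kinase, 14.1. PTK2B, the kinase related to PTK2, had no peak and 59 CpGs in its promoter, the fewest of the 12.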
